A study of Arabidopsis thaliana with 12 samples.

Results

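The response of wild type Arabidopsis thaliana, accession Col-0, to a spray with abscisic acid (ABA) was measured as the change in RNA level between seedlings taken before the spray (0 h) and 4 h after it. The libraries were chosen by their labels alone: the 3 Col-0 libraries of 4 h were set against the 3 Col-0 libraries of 0 h, which makes 6 of the 12 libraries of the series. All were whole seedlings, 12 days old, grown on MS/2 medium with sucrose under a day and night cycle. The 0 h seedlings received no ABA, and the 4 h seedlings had been sprayed with 10 µM ABA in water. The other 6 libraries came from RNAi-MARS, plants carrying an RNA interference construct that targets MARS, a long non-coding RNA, taken at the same times. They enter the shared estimate of spread and one side-by-side comparison. No Col-0 group was left unsprayed for 4 h, so the hormone, the act of spraying and the passage of 4 h of the day cannot be told apart in these data. The labels do not say that the libraries of a group, lettered A, B and C, came from separate cultures; the spread behind each p-value is that of these libraries and may be technical. In whole seedlings, fewer cells of a type and less RNA per cell cannot be told apart.

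ABA is the hormone of water deficit, salt stress and seed dormancy. Without ABA, clade A protein phosphatases of type 2C (PP2Cs) keep SnRK2 protein kinases inactive. ABA bound to a receptor of the PYR/PYL/RCAR family blocks these phosphatases, and the freed kinases phosphorylate ion channels of the guard cell and bZIP transcription factors. The bZIP factors bind the ABA response element (ABRE), a promoter sequence with the core ACGTG, in genes for late embryogenesis abundant (LEA) proteins, dehydrins and other protective proteins.

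Polyadenylated RNA was sequenced, and the deposited tables hold estimated counts per annotated gene. The 6 libraries held 19020202 to 34721018 counts each. Levels are given as CPM, counts divided by a library size that was adjusted by the trimmed mean of M values. CPM are not divided by gene length and are compared here between libraries for a gene, never between genes. A difference is the log2 fold change of 4 h over 0 h, so a negative value means a lower level after the spray. It is given ± an SE, with n = 3 libraries per group. This SE is the size of the difference divided by the square root of the F statistic of the test named next. It therefore uses the estimate of spread shared over all 12 libraries. A gene was called when its Benjamini-Hochberg adjusted p in the quasi-likelihood F test of edgeR was under 0.05. The sources used here do not state whether counting used strand, so genes whose annotated span overlaps another gene are marked as overlapping and their values are uncertain.

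Of 22465 features tested 8979 were called (40.0%): 4646 were called higher at 4 h (20.7%) and 4333 called lower (19.3%), with a median log2 difference over all features of -0.0045. Counts of called members of a gene list, given below, stand beside these shares of 20.7% higher and 19.3% lower. The calls reached from small to very large differences. Among called features, 1033 rose by 1 to 2 on the log2 scale, 353 by 2 to 3, 129 by 3 to 4 and 129 by 4 or more. On the other side, 833 fell by 1 to 2, 126 by 2 to 3, 29 by 3 to 4 and 14 by 4 or more. Features at least 2-fold higher numbered 1644 (7.32%), against 1002 at least 2-fold lower (4.46%). The 3 libraries of 0 h lay wholly below or wholly above the 3 of 4 h in 11896 features (53.0% of those tested), with 5924 of them higher (26.4%) and 5972 lower (26.6%).

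The share of the RNA pool taken by these features is given as a description. They were picked by their change in these same libraries, so the direction of each shift follows from that choice. Features called higher held 13.6% to 15.4% of all counts in the 0 h libraries and 27.5% to 28.2% in the 4 h libraries. Features called lower went from between 34.1% and 36.2% to between 21.1% and 21.4%. The 611 features at least 4-fold higher made up 0.375% to 0.537% of counts before the spray and 3.57% to 3.91% after it. The chance of a call moved with the level: 17.1% of features with a mean under 1 CPM were called, against 54.5% of those over 100 CPM. Among transcript classes, 20 of 75 tested small nucleolar RNAs fell (26.7%, against 19.3% of all features) and none rose. Their median log2 difference was -0.71. Their median level was only 0.606 CPM, in libraries of polyadenylated RNA. The strand used in counting is not known, so reads of overlapping genes may be included. Of 75 tested plastid genes 3 fell and none rose.

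**Figure D1:**
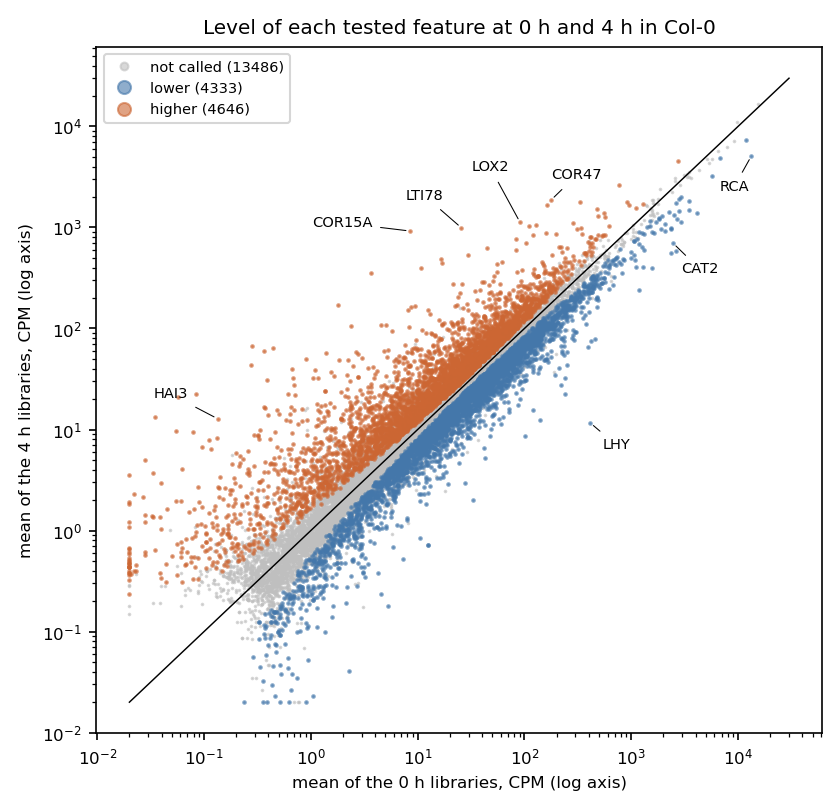
Mean level of every tested feature at 0 h (x axis) and 4 h (y axis) in Col-0, in CPM on log axes, each the mean of 3 libraries, with values under 0.02 CPM drawn at 0.02. Colours separate features called higher (4646), called lower (4333) and not called; COR15A, HAI3, LTI78 and LOX2 lie above the diagonal, and LHY, RCA and CAT2 lie below it.

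The libraries of a group were alike but not equal. Pearson correlations of log2 CPM between libraries of the same group were 0.970 to 0.986. Library C of 0 h had the lowest levels of many genes that rose after the spray, and library C of 4 h had the highest levels of heat shock and several defence genes.

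The receptors of ABA were lower after the spray. Of 9 tested receptor genes 6 fell and none rose, with a median log2 difference of -1.04; without library A of 0 h 12 could be tested and 1 was called higher. PYR1, the receptor after which the family was named, measured 66.0, 68.6 and 77.4 CPM at 0 h and 33.7, 34.9 and 34.9 CPM at 4 h. All 3 later libraries lay near one level, and all lay below the earlier ones, with a log2 difference of -1.04 ± 0.07 (edgeR adjusted p = 2.1e-06). PYL4 fell from 50.3, 83.0 and 79.2 CPM to 14.6, 18.8 and 22.4 CPM, a log2 difference of -1.93 ± 0.28 (edgeR adjusted p = 0.000402). PYL5 and PYL2 fell by similar steps, with log2 differences of -1.82 ± 0.49 and -1.66 ± 0.38. PYL6 measured 1.5, 3.43 and 2.38 CPM at 0 h and 0.207, 0.623 and 0.708 CPM at 4 h and was called with all libraries, at a log2 difference of -2.29 ± 0.67 (edgeR adjusted p = 0.0187). It was -1.96 without library B at 0 h (adjusted p = 0.0617) and -1.86 without library A at 4 h (adjusted p = 0.069), and limma-voom did not call it (adjusted p = 0.0696). PYL1 was at 23.9, 25.9 and 26.9 CPM at 0 h and 21.9, 25.1 and 22.2 CPM at 4 h. Its groups overlapped, and its log2 difference of -0.15 ± 0.10 did not pass the test.

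The phosphatases that the receptors inhibit moved the other way. Of 9 clade A PP2C genes 7 rose and none fell, with a median log2 difference of 1.98. ABI1 (overlapping), named for an ABA-insensitive mutant, was at 74.3, 55.5 and 45.6 CPM at 0 h and 239, 221 and 230.0 CPM at 4 h. The 3 libraries of 4 h were within a narrow band, and the log2 difference was 1.98 ± 0.16 (edgeR adjusted p = 5.55e-06). ABI2, its close relative, was at 18.1, 14.4 and 10.7 CPM at 0 h and 68.9, 53.2 and 57.0 CPM at 4 h, with a log2 difference of 2.06 ± 0.18 (edgeR adjusted p = 9.62e-06). PP2CA rose from 86.0, 60.7 and 53.5 CPM to 246, 186 and 166 CPM, a log2 difference of 1.58 ± 0.26 (edgeR adjusted p = 0.000657). The HAI phosphatases, whose name stands for highly ABA-induced, spread widely between the libraries of 0 h. HAI1 was at 35.7, 19.5 and 7.19 CPM at 0 h and 107, 71.3 and 93.0 CPM at 4 h, and library C had the lowest 0 h value; the groups did not overlap, with a log2 difference of 2.13 ± 0.54 (edgeR adjusted p = 0.0102). HAI2 was at 3.74, 2.04 and 0.688 CPM at 0 h and 32.9, 21.6 and 21.3 CPM at 4 h, a log2 difference of 3.61 ± 0.62 (edgeR adjusted p = 0.00123). HAI3 was at 0.299, 0.104 and 0 CPM at 0 h and 16.7, 9.19 and 12.4 CPM at 4 h, so it was close to undetected before the spray and clearly present after it. HAB2 rose by 0.49 ± 0.15 log2 units (edgeR adjusted p = 0.0232) with all libraries, and its log2 difference was 0.41 without library B at 0 h (adjusted p = 0.0876), 0.43 without library C at 0 h (adjusted p = 0.0855), 0.41 without library A at 4 h (adjusted p = 0.087) and 0.50 without library B at 4 h (adjusted p = 0.054). HAB1 was at 152, 107 and 102 CPM at 0 h and 119, 91.0 and 90.5 CPM at 4 h, where the groups overlapped, and its log2 difference of -0.26 ± 0.18 did not pass the test.

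Of the 10 SnRK2 kinase genes 8 rose and 1 fell, with a median log2 difference of 0.58. The kinases of subclass III, which ABA activates most strongly, rose to different extents. SNRK2.2 was at 49.2, 57.5 and 52.3 CPM at 0 h and 148, 161 and 157 CPM at 4 h. Its groups were far apart beside the spread within each, and the log2 difference was 1.55 ± 0.09 (edgeR adjusted p = 5.83e-07). SNRK2.3 (overlapping) rose by 1.3 ± 0.10 log2 units (edgeR adjusted p = 3.55e-06). OST1, also called SnRK2.6, which acts in guard cells to close stomata, was at 30.3, 27.3 and 23.8 CPM at 0 h and 35.1, 34.5 and 32.4 CPM at 4 h. The groups did not overlap but lay close together; the log2 difference of 0.33 ± 0.10 (edgeR adjusted p = 0.02) was 0.24 without library C at 0 h (adjusted p = 0.0815), 0.31 without library A at 4 h (adjusted p = 0.0638) and 0.32 without library B at 4 h (adjusted p = 0.0536), and with upper quartile scaling it was 0.27 (adjusted p = 0.0656). Outside subclass III, SNRK2.9 had the largest rise, from 1.55, 1.42 and 1.38 CPM to 17.3, 12.2 and 15.3 CPM, a log2 difference of 3.37 ± 0.18 (edgeR adjusted p = 2.61e-07). SNRK2.7 rose by 1.9 ± 0.25 log2 units (edgeR adjusted p = 0.000145). SNRK2-8 (overlapping) was the member that fell, from 63.8, 46.6 and 53.1 CPM to 17.2, 13.7 and 18.5 CPM, a log2 difference of -1.72 ± 0.16 (edgeR adjusted p = 1.42e-05).

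A mitogen-activated protein kinase cascade that acts downstream of the core pathway showed 4 called members of 9, all higher. MAPKKK18, its ABA-inducible first kinase, was at 1.69, 1.07 and 0.719 CPM at 0 h and 14.5, 11.7 and 20.8 CPM at 4 h, and the 4 h values were about an order of magnitude above those of 0 h, with a log2 difference of 3.80 ± 0.33 (edgeR adjusted p = 1.04e-05). MPK7, a last kinase of the cascade, was at 9.32, 8.90 and 8.22 CPM at 0 h and 32.1, 36.8 and 36.7 CPM at 4 h, a log2 difference of 2.00 ± 0.13 (edgeR adjusted p = 1.35e-06).

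Among the 8 tested bZIP factors that bind the ABRE, 5 rose and 1 fell. The rises were unequal. ABF1 (overlapping) was at 2.49, 2.49 and 2.5 CPM at 0 h and 38.2, 42.1 and 46.1 CPM at 4 h. The 0 h values were almost equal, and the log2 difference was 4.07 ± 0.10 (edgeR adjusted p = 1.44e-09). ABI5, a factor of seed and early seedling ABA responses, was at 0.199, 0.312 and 0.281 CPM at 0 h and 2.52, 4.36 and 4.6 CPM at 4 h; its level stayed low, and its groups did not overlap, with a log2 difference of 3.80 ± 0.35 (edgeR adjusted p = 1.25e-05). ABF2 was at 48.6, 41.1 and 31.2 CPM at 0 h and 73.7, 61.6 and 48.8 CPM at 4 h, a log2 difference of 0.61 ± 0.18 (edgeR adjusted p = 0.0168), and it was 0.46 without library C at 0 h (adjusted p = 0.0615) and 0.46 without library A at 4 h (adjusted p = 0.0736); a fit of only the compared groups did not call it (adjusted p = 0.0558). ABF3 (overlapping) rose by 0.49 ± 0.18 log2 units (edgeR adjusted p = 0.0442) with all libraries, and the log2 difference was 0.41 without library B at 0 h (adjusted p = 0.144), 0.39 without library C at 0 h (adjusted p = 0.153), 0.42 without library A at 4 h (adjusted p = 0.138) and 0.42 without library B at 4 h (adjusted p = 0.134). That call was also lost with upper quartile scaling (adjusted p = 0.08), with no filter (0.0504), in a fit of only the compared groups (0.0948) and without 1 of 4 RNAi-MARS libraries (0.0537 to 0.0608). Without library B at 0 h or without library C at 0 h 3 of these genes were called higher, and without library A at 4 h 2 were. The count called lower was 2 without library A at 0 h and 0 without library A at 4 h. Of the 4 AFP genes, whose products bind ABI5 and hold it in check, 3 rose, among them AFP1 (overlapping) by 2.24 ± 0.25 log2 units (edgeR adjusted p = 6.89e-05) and AFP3 by 2.06 ± 0.30 log2 units (edgeR adjusted p = 0.000404). TMAC2, the fourth member, fell by 0.82 ± 0.23 log2 units (edgeR adjusted p = 0.0138), and its log2 difference was -0.74 without library C at 0 h (adjusted p = 0.0505). The E3 ubiquitin ligases of the pathway showed 1 call among 11, and 0 without library C of 0 h or library B of 4 h and 2 without library A of 0 h.

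The list of ABA breakdown and conjugation also held BGLU18, which acts in the opposite direction. Of its 9 genes 7 rose and none fell, with a median log2 difference of 1.43. The 4 CYP707A genes encode the ABA 8'-hydroxylases that start ABA breakdown, and all 4 rose. CYP707A1 was at 6.63, 6.27 and 3.06 CPM at 0 h and 68.5, 45.3 and 69.7 CPM at 4 h, so that every 4 h value exceeded every 0 h value several times over, with a log2 difference of 3.54 ± 0.31 (edgeR adjusted p = 1.33e-05). CYP707A2 was at 4.89, 3.40 and 2.06 CPM at 0 h and 31.5, 21.6 and 25.1 CPM at 4 h, a log2 difference of 2.94 ± 0.27 (edgeR adjusted p = 1.57e-05). CYP707A3 rose by 1.43 ± 0.22 log2 units (edgeR adjusted p = 0.000399) and CYP707A4 by 1.43 ± 0.23 log2 units (edgeR adjusted p = 0.000496). BGLU18, a glucosidase that frees ABA from its glucose ester, was at 95.2, 87.3 and 126 CPM at 0 h and 745, 715 and 646 CPM at 4 h, a log2 difference of 2.77 ± 0.38 (edgeR adjusted p = 0.00024). Of 7 genes of synthesis 3 rose and 1 fell, and without library C of either time 1 rose. NCED3, whose dioxygenase makes the committed step of synthesis under drought, was at 22.1, 12.4 and 8.26 CPM at 0 h and 30.1, 29.5 and 24.4 CPM at 4 h. Its groups did not overlap, but library A at 0 h was close to the 4 h values and the log2 difference of 0.99 ± 0.37 (edgeR adjusted p = 0.0574) missed the threshold. NCED3 was called higher by DESeq2 (adjusted p = 0.0189), by limma-voom (0.0163) and with the letters as a block (0.0314), at 1.44 without library A at 0 h (0.0112), and without library A of RNAi-MARS at 0 h (0.0262). AAO3 (overlapping), the oxidase of the last step, rose by 1.06 ± 0.18 log2 units (edgeR adjusted p = 0.000762). ABA1, the zeaxanthin epoxidase, fell from 808, 679 and 708 CPM to 595, 498 and 446 CPM, a log2 difference of -0.51 ± 0.13 (edgeR adjusted p = 0.00728).

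**Figure D2:**
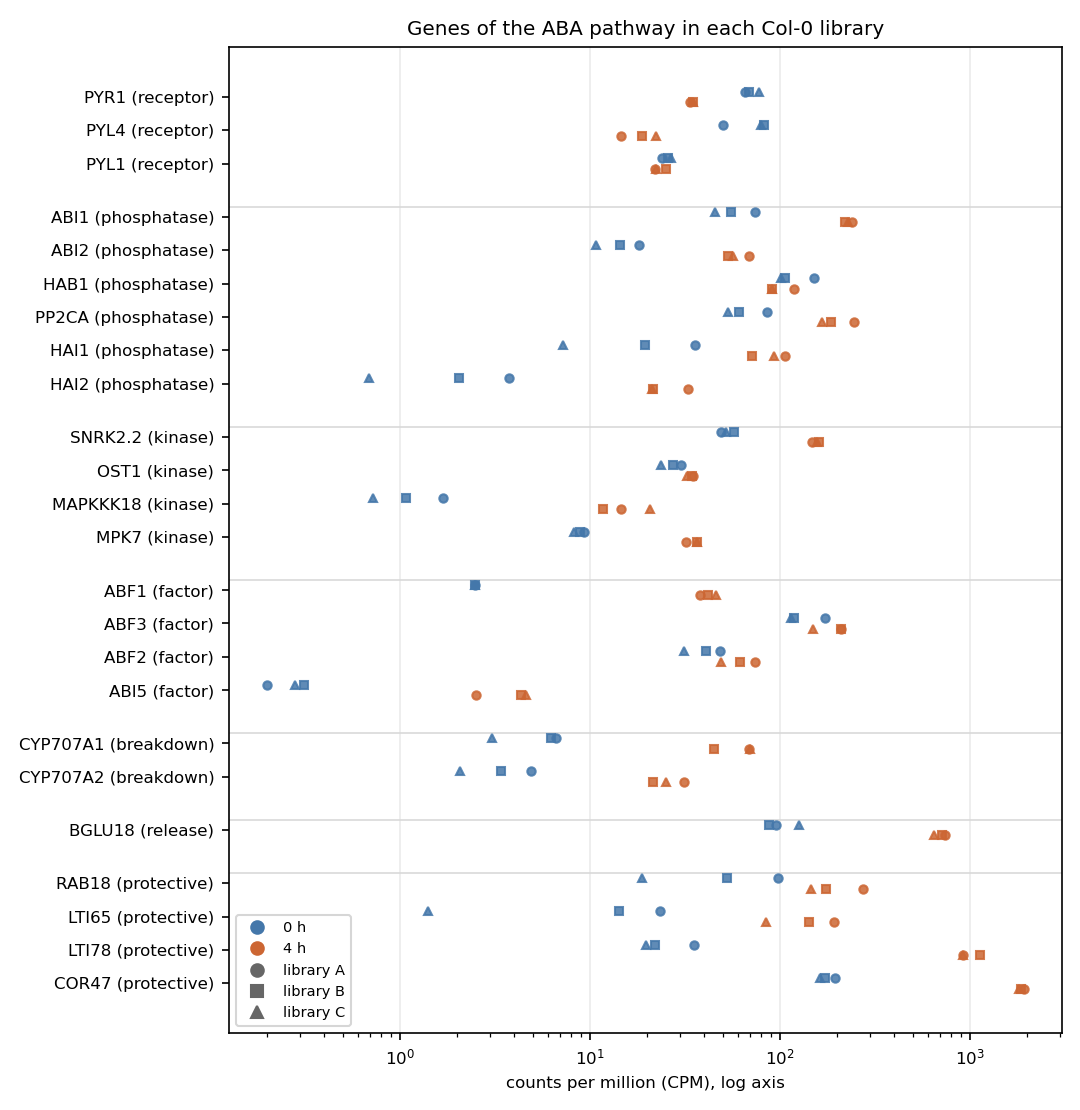
Level in CPM (log axis) of 24 genes of ABA perception, signalling, turnover and response in each Col-0 library, with 3 points at 0 h and 3 at 4 h per gene. PYR1 and PYL4 have their 3 points of 4 h below those of 0 h, while HAI2, ABF1, CYP707A1 and LTI78 have theirs well above.

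Nearly all genes for protective proteins rose. All 7 of 7 dehydrin genes and all 11 of 11 genes of the COR, RD29 and KIN type rose, with median log2 differences of 1.81 and 3.70. Of 16 other LEA genes 12 rose and none fell, with a median of 3.25. Leaving out any single Col-0 library left 11 COR, RD29 and KIN calls. Without library C of 0 h 5 dehydrins, 11 LEA genes and 6 clade A PP2C genes were called higher. That library had the lowest score for these lists and also the lowest summed level of the root markers given further on; their part in these results was not tested. Dehydrins are hydrophilic proteins that protect membranes and enzymes during water loss. COR47, one of them, was at 196, 174 and 163 CPM at 0 h and 1933, 1849.8 and 1817 CPM at 4 h. All 3 later values were close to one another, with a log2 difference of 3.39 ± 0.25 (edgeR adjusted p = 2.77e-06). LTI30 was at 12.0, 10.9 and 9.60 CPM at 0 h and 419, 354 and 431 CPM at 4 h, a log2 difference of 5.21 ± 0.29 (edgeR adjusted p = 4.61e-07). ERD10 rose from 105, 82.3 and 61.3 CPM to 796, 801 and 709 CPM, a log2 difference of 3.22 ± 0.25 (edgeR adjusted p = 3.98e-06).

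RAB18 (overlapping), a dehydrin long used as a marker of ABA response, was at 98.5, 52.6 and 18.7 CPM at 0 h and 274, 174 and 145 CPM at 4 h. The groups did not overlap, yet library A at 0 h was more than 5 times library C at 0 h. Its log2 difference of 1.81 ± 0.58 (edgeR adjusted p = 0.0305) was 1.76 without library B at 0 h (adjusted p = 0.0831), 1.39 without library C at 0 h (adjusted p = 0.0658) and 1.51 without library A at 4 h (adjusted p = 0.0908). RAB18 also lost its call with no filter (adjusted p = 0.0688) and in a fit of only the compared groups (0.0736). LTI65, also known as RD29B, also spread at 0 h, with 23.3, 14.2 and 1.41 CPM at 0 h and 193, 143 and 85.0 CPM at 4 h; library C was lowest at both times, and the log2 difference was 3.47 ± 0.90 (edgeR adjusted p = 0.012). LTI78, also known as RD29A, lies next to LTI65 on chromosome 5 and was at 35.2, 22.1 and 19.8 CPM at 0 h and 918, 1135 and 919 CPM at 4 h, a narrow spread beside a log2 difference of 5.27 ± 0.28 (edgeR adjusted p = 2.97e-07). KIN1 was at 20.6, 17.2 and 12.6 CPM at 0 h and 468, 378 and 493 CPM at 4 h, a log2 difference of 4.74 ± 0.35 (edgeR adjusted p = 3.62e-06). RD20, a caleosin of lipid bodies, was at 31.6, 19.6 and 12.7 CPM at 0 h and 242, 288 and 297 CPM at 4 h, a log2 difference of 3.70 ± 0.53 (edgeR adjusted p = 0.000393). RD22 rose from 436, 293 and 258 CPM to 1911, 2052 and 1389.8 CPM, a log2 difference of 2.44 ± 0.22 (edgeR adjusted p = 9.96e-06).

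Several LEA genes that are best known from seeds were higher in the seedlings at 4 h. GEA6, which encodes the seed protein Em6, was at 0.150, 0 and 0.188 CPM at 0 h and 8.95, 7.79 and 6.68 CPM at 4 h; it was nearly undetected before the spray and present in all 3 libraries after it. LEA4-5 was at 8.82, 4.82 and 1.59 CPM at 0 h and 117, 98.3 and 108 CPM at 4 h, a log2 difference of 4.46 ± 0.49 (edgeR adjusted p = 7.7e-05). LEA18 was at 0.299, 0.139 and 0.0313 CPM at 0 h and 2.97, 2.55 and 2.48 CPM at 4 h, a low level throughout. AT3G02480, annotated as a LEA protein, was at 6.88, 3.29 and 0.782 CPM at 0 h and 351, 322 and 379 CPM at 4 h, a log2 difference of 6.66 ± 0.56 (edgeR adjusted p = 1.27e-05). None of the 10 seed storage and oleosin genes listed as seed markers had enough counts to be tested. SAG21 (overlapping) did not pass, at 42.9, 95.3 and 79.7 CPM at 0 h and 76.3, 90.4 and 294 CPM at 4 h, where library C at 4 h stood far above the others.

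The sequences in front of some of these genes were read from the TAIR10.1 reference genome at the annotated gene starts. They are shown because the ABRE core is the sequence bound by the bZIP factors above, and because the neighbours LTI65 and LTI78 differ in it within this window. LTI65 lies on the plus strand and its stretch is chr5:21236771-21237020. LTI78 lies on the plus strand at chr5:21240467-21240716, and RAB18 on the minus strand at chr5:26519448-26519697. Each line gives the 250 bases before the start, 5′ to 3′ on the gene's strand. Capitals mark the ABRE core ACGTG, the dehydration response element (DRE) core CCGAC and the evening element core AATATCT on either strand, so some appear as their reverse complement.
LTI65: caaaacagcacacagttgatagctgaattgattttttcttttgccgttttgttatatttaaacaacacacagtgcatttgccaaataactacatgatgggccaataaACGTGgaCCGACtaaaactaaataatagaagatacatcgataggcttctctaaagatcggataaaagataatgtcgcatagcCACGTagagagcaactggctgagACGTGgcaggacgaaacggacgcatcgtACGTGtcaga
LTI78: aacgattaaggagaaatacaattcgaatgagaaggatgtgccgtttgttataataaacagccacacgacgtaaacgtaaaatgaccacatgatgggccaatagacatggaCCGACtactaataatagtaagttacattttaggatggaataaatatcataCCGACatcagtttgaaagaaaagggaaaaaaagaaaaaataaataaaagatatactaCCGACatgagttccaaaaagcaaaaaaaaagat
RAB18: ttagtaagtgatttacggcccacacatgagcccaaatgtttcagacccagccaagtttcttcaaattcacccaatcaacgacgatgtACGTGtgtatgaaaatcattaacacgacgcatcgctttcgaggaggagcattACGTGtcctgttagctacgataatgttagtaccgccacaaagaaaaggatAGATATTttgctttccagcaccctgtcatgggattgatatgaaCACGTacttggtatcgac
Over the window from 250 bases before to 50 bases after the start, LTI65 held 4 ABRE cores and 1 DRE core. LTI78 held no ABRE core and 4 DRE cores, of which 1 lies after the start and is not printed. RAB18 held 3 ABRE cores and 1 evening element core. HAI1 held none of these 3 motifs in its window, while ABF3 held 1 ABRE core. An annotated start can lie before the start of most transcripts. The first base of an ABRE core was found 70 bases after the start in LTI78, outside the window. In HAI1 matches began 79, 122 and 123 bases after it, also outside the window, and the last pair are the strands of 1 G-box. A match is only a run of letters, and no match says only that these letters are not in this window.

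Over all 27443 annotated gene starts, 26.7% had an ABRE core in this window. The share was 27.1% among tested genes that were not called and 31.5% among genes that rose by less than 2-fold. It was 38.1% among genes that rose by 2 to 4-fold, 41.1% for 4 to 8-fold, 57.4% for 8 to 16-fold and 54.6% for 16-fold or more. Among genes that fell it was 23.8% below 2-fold, 22.4% for 2 to 4-fold and 31.0% for 4-fold or more. The G-box CACGTG, which holds the ABRE core on both strands, was found in 7.68% of all windows and in 29.4% of those of genes that rose by 16-fold or more. For the DRE core the corresponding shares were 15% and 24.4%. The TATA box TATAAA, on either strand, was found in 52.1% of all windows.

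The share called higher went with the number of ABRE core matches. Matches on each strand were counted, so 1 G-box gives 2 matches. The classes of 2 and above therefore include windows with G-boxes. Of tested genes without a core 19.7% were called higher, against 24.4% with 1, 29.2% with 2, 30.5% with 3 and 34.8% with 4 or more. For rises of at least 2-fold these shares were 6.07%, 9.38%, 11.6%, 13.3% and 18.6%. Of the LEA windows 88.2% held an ABRE core and 64.7% a DRE core. For the COR, RD29 and KIN genes 72.7% held an ABRE core, for the dehydrins 71.4% and for the clade A PP2C genes 66.7%. Lists that did not rise as a group reached similar shares, with 83.3% for flavonoid synthesis and 73.3% for iron uptake, both with calls in each direction, and 70.0% for the seed markers, none of which was tested. Of the genes commonly used as references in expression assays 7.14% held one.

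**Figure D3:**
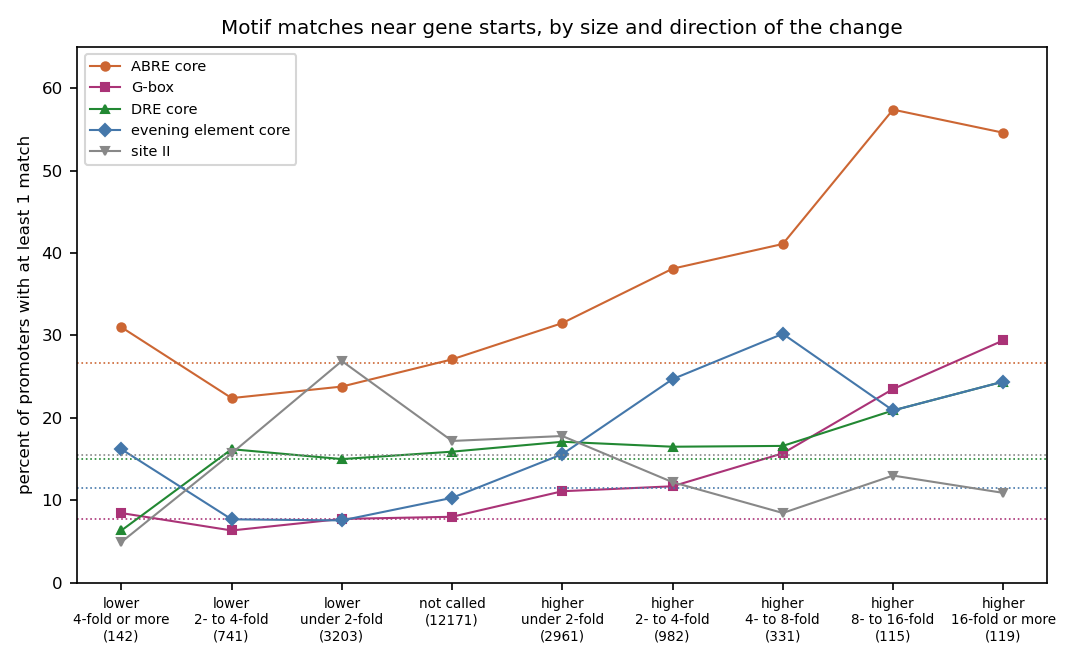
Percent of promoter windows (250 bases before to 50 after the gene start) with at least 1 match to each motif, by direction and size of the change in Col-0, beside the share over all 27443 windows. The share with the ABRE core goes from 27.1% in genes not called to 57.4% in genes that rose 8 to 16-fold.

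The 15 largest rises among genes with at least 5 CPM at 4 h and no overlap between the groups went beyond protective proteins. Picked for their rise, they together held 0.000716% to 0.00260% of counts before the spray and 0.143% to 0.219% after it. FKF1 (overlapping, and with shared reads), a blue light receptor of the day length pathway, was at 0.0498, 0.208 and 0.0313 CPM at 0 h and 5.91, 6.70 and 7.52 CPM at 4 h. AT5G23240 (overlapping), which encodes a DnaJ-type protein, was at 0.698, 0.312 and 0.156 CPM at 0 h and 22.8, 34.6 and 35.9 CPM at 4 h, a log2 difference of 6.44 ± 0.34 (edgeR adjusted p = 4.37e-07). AT3G15670, annotated as a LEA protein, was at 0.0997, 0 and 0.0625 CPM at 0 h and 10.9, 7.12 and 10.8 CPM at 4 h. All 3 were near the limit of detection at 0 h. ELI3-2, named for a gene activated by elicitors of defence, was at 0, 0.139 and 0.0313 CPM at 0 h and 1.28, 13.2 and 48.5 CPM at 4 h, and limma-voom did not call it (adjusted p = 0.208). AT4G33467 (overlapping) was at 0.150, 0.104 and 0 CPM at 0 h and 23.6, 14.9 and 28.5 CPM at 4 h. AT2G38240, annotated as an oxygenase that depends on 2-oxoglutarate and iron, was at 0, 0.104 and 0 CPM at 0 h and 2.14, 6.60 and 31.0 CPM at 4 h. Its 0 h value rests on 3 counts in 1 library, so no fold is given, and limma-voom did not call it (adjusted p = 0.0827).

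The 15 largest falls were led by the clock gene LHY, described with the clock below. MEE3 was at 6.48, 4.50 and 10.9 CPM at 0 h and 0.449, 0.364 and 0.752 CPM at 4 h, and the groups did not overlap, with a log2 difference of -3.79 ± 0.40 (edgeR adjusted p = 3.43e-05). AT1G26790, which encodes a Dof-type zinc finger protein, was at 6.43, 4.23 and 5.07 CPM at 0 h and 0.138, 0 and 0.398 CPM at 4 h, a log2 difference of -4.80 ± 0.55 (edgeR adjusted p = 5.95e-05). AT2G27420, annotated as a cysteine proteinase, fell by 3.19 ± 0.49 log2 units (edgeR adjusted p = 0.00063). AT4G15430 fell by 3.0 ± 0.10 log2 units (edgeR adjusted p = 1.92e-08). BT5 (overlapping), a BTB and TAZ domain protein, was at 231, 204 and 278 CPM at 0 h and 32.0, 25.6 and 39.6 CPM at 4 h, a log2 difference of -2.87 ± 0.33 (edgeR adjusted p = 7.75e-05).

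The 10 largest gains and losses of CPM were picked by their change, so the direction of their shares is fixed. In absolute terms, the 10 largest gains took 0.442% to 0.513% of counts at 0 h and 1.68% to 1.94% at 4 h. They included the dehydrin COR47, RD22 and LTI78 given above. CAT3, a catalase, was at 731, 794 and 792 CPM at 0 h and 2702, 2841 and 2297 CPM at 4 h, a log2 difference of 1.76 ± 0.12 (edgeR adjusted p = 2e-06). ADC2, the arginine decarboxylase that begins putrescine synthesis, was at 515, 487 and 419 CPM at 0 h and 1355, 1386 and 1842 CPM at 4 h, a log2 difference of 1.69 ± 0.17 (edgeR adjusted p = 1.77e-05). COR413-PM1, a membrane protein of cold acclimation, rose by 3.05 ± 0.24 log2 units (edgeR adjusted p = 3.88e-06). LHB1B1, a light-harvesting protein of photosystem II, was at 1970.3, 2706 and 3501 CPM at 0 h and 4875, 4752 and 4058 CPM at 4 h. Its 0 h libraries ranged widely, and its log2 difference of 0.74 ± 0.22 (edgeR adjusted p = 0.0198) was 0.56 without library A at 0 h (adjusted p = 0.0759), 0.74 without library B at 0 h (adjusted p = 0.0551), 0.70 without library A at 4 h (adjusted p = 0.053) and 0.71 without library B at 4 h (adjusted p = 0.0553). The 10 largest losses went from between 4.93% and 5.70% of counts to between 2.38% and 2.77%, and most were genes of carbon fixation.

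**Figure D4:**
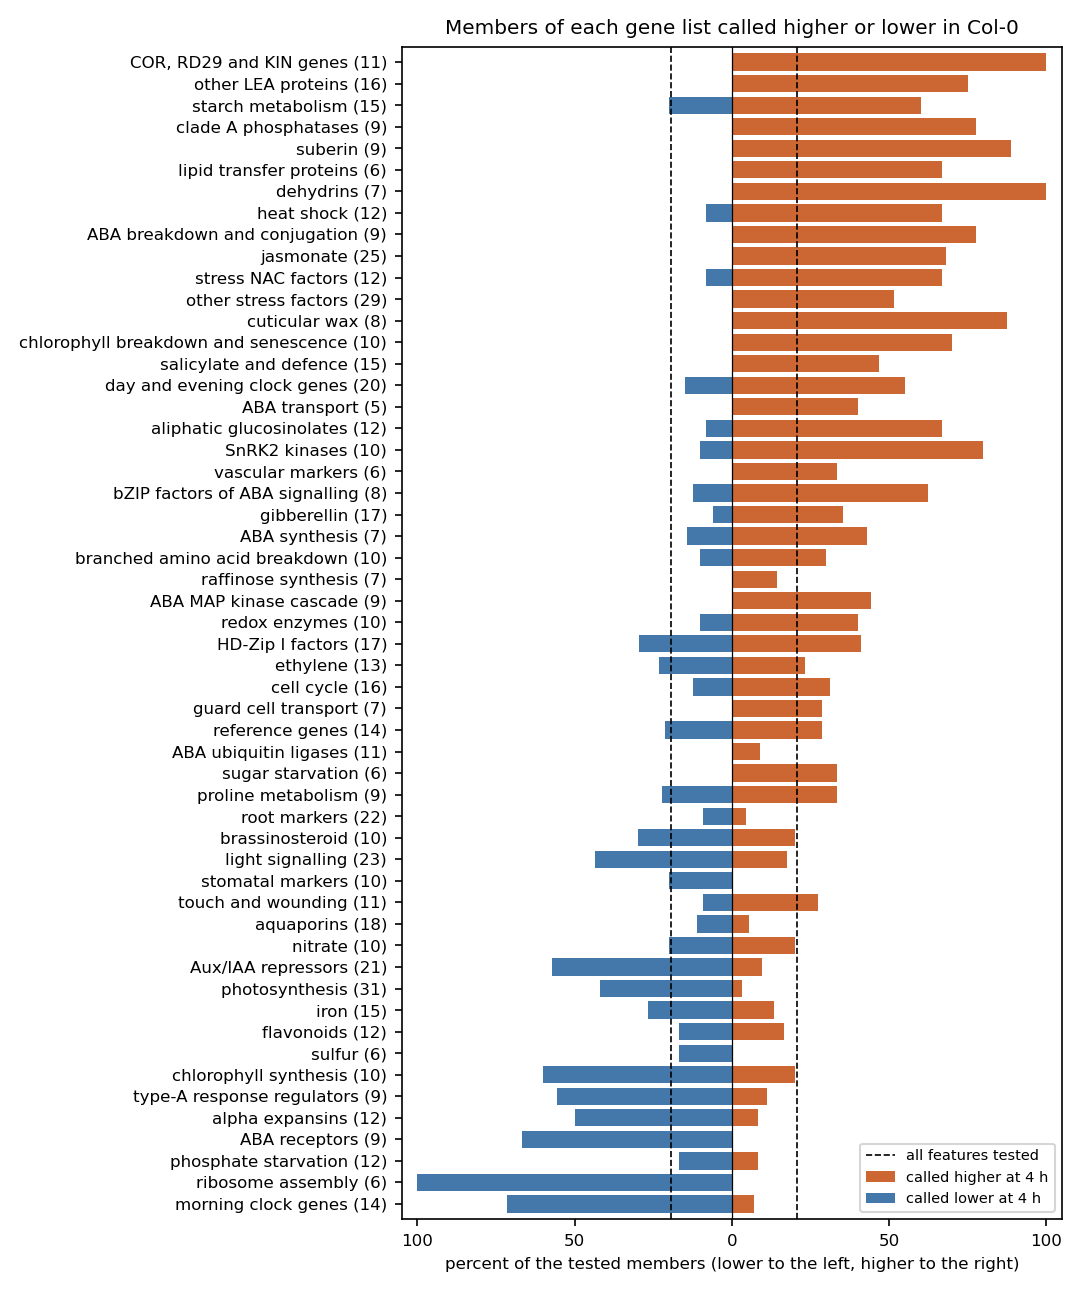
For each gene list with at least 5 tested members, the percent of members called higher and called lower in Col-0, sorted by the median log2 difference of the list; dashed lines give the same percentages over all 22465 features (20.7% and 19.3%). The COR, RD29 and KIN list is at 100% higher and ribosome assembly at 100% lower.

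Of 31 tested nuclear photosynthesis genes 13 fell and 1 rose, with a median log2 difference of -0.35. Without library C of 0 h 10 fell and the median was -0.19. Without library C of 4 h 12 fell and the median was -0.30. The 1 rise was lost without library A or B of either time. RCA (overlapping), the activase of Rubisco, was at 13722, 11971 and 14229.8 CPM at 0 h and 6274, 4495 and 4497 CPM at 4 h. The groups lay far apart, and the log2 difference was -1.39 ± 0.18 (edgeR adjusted p = 0.000139). The Rubisco small subunit gene RBCS2B was at 3456, 2993 and 3947 CPM at 0 h and 1538, 1179.8 and 1717 CPM at 4 h, a log2 difference of -1.23 ± 0.25 (edgeR adjusted p = 0.00233), and RBCS1B fell by 1.3 ± 0.24 log2 units (edgeR adjusted p = 0.00128). RBCS1A fell by 0.70 ± 0.21 log2 units (edgeR adjusted p = 0.0224), and its log2 difference was -0.70 without library A at 0 h (adjusted p = 0.0541), -0.59 without library C at 0 h (adjusted p = 0.0805), -0.64 without library A at 4 h (adjusted p = 0.0738) and -0.62 without library B at 4 h (adjusted p = 0.0827). In the Calvin-Benson cycle, GAPB fell by 1.17 ± 0.19 log2 units (edgeR adjusted p = 0.000473), SBPASE by 1.00 ± 0.17 log2 units (edgeR adjusted p = 0.000815) and PRK (overlapping) by 0.97 ± 0.14 log2 units (edgeR adjusted p = 0.000314). NPQ4, the PsbS protein of photoprotection, was at 1734, 1383 and 1820.2 CPM at 0 h and 949, 794 and 893 CPM at 4 h, a log2 difference of -0.91 ± 0.17 (edgeR adjusted p = 0.00159). Of the light-harvesting genes LHCA4 (overlapping) had a log2 difference of -0.35 ± 0.15 and LHCB5 one of -0.31 ± 0.16; neither passed the test. LHCA4 was called lower by DESeq2 (adjusted p = 0.0406), with upper quartile scaling (0.0481) and without library B of RNAi-MARS at 4 h (0.0309).

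Genes of chlorophyll synthesis were mostly lower and those of chlorophyll breakdown mostly higher. Of 10 synthesis genes 6 fell and 2 rose (1 without library A or C of 0 h or library B of 4 h), while 7 of 10 genes of chlorophyll breakdown and leaf senescence rose and none fell. HEMA1, the first committed enzyme of tetrapyrrole synthesis, was at 843, 862 and 885 CPM at 0 h and 513, 458 and 461 CPM at 4 h. All later values lay below all earlier ones, with a log2 difference of -0.86 ± 0.13 (edgeR adjusted p = 0.000403). GUN5, a subunit of magnesium chelatase, fell by 0.94 ± 0.14 log2 units (edgeR adjusted p = 0.000263). PORB (overlapping), a light-dependent protochlorophyllide reductase, went the other way, from 72.2, 122 and 165 CPM to 804, 912 and 806 CPM, a log2 difference of 2.81 ± 0.26 (edgeR adjusted p = 1.22e-05). PORA, its relative of the dark-grown seedling, rose by 2.15 ± 0.65 log2 units (edgeR adjusted p = 0.0233), and its log2 difference was 1.8 without library A at 0 h (adjusted p = 0.0714), 2.29 without library C at 0 h (adjusted p = 0.0588) and 1.65 without library B at 4 h (adjusted p = 0.0809); with no filter its adjusted p was 0.051. On the breakdown side, ACD1 (overlapping), the pheophorbide a oxygenase, was at 55.7, 51.9 and 44.2 CPM at 0 h and 226, 223 and 199 CPM at 4 h, a log2 difference of 2.09 ± 0.13 (edgeR adjusted p = 7.39e-07). PPH, the pheophytinase, rose by 1.42 ± 0.10 log2 units (edgeR adjusted p = 2.04e-06), NYC1, a chlorophyll b reductase, by 0.99 ± 0.09 log2 units (edgeR adjusted p = 1.23e-05) and NYE1, the magnesium dechelatase, by 0.72 ± 0.08 log2 units (edgeR adjusted p = 4.14e-05).

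The enzymes of starch breakdown moved with large and opposite steps. Of 15 starch genes 9 rose and 3 fell, with a median log2 difference of 2.05. SEX1, the glucan, water dikinase that primes the granule surface, was at 57.8, 51.2 and 47.0 CPM at 0 h and 368, 355 and 265 CPM at 4 h. The 4 h values stood several times above those of 0 h, a log2 difference of 2.66 ± 0.16 (edgeR adjusted p = 7.39e-07). The phosphatase SEX4 rose by 2.19 ± 0.13 log2 units (edgeR adjusted p = 7.39e-07), the debranching enzyme ISA3 by 3.17 ± 0.13 log2 units (edgeR adjusted p = 4.76e-08) and the amylase AMY3 by 2.37 ± 0.13 log2 units (edgeR adjusted p = 2.87e-07). DPE1 was at 7.28, 7.83 and 7.51 CPM at 0 h and 50.2, 50.3 and 51.9 CPM at 4 h, a log2 difference of 2.75 ± 0.12 (edgeR adjusted p = 6.88e-08), and DPE2, which handles maltose in the cytosol, rose by 2.05 ± 0.15 log2 units (edgeR adjusted p = 2.07e-06). BAM5, a beta-amylase, was at 1.3, 0.520 and 0.0938 CPM at 0 h and 5.67, 4.88 and 32.2 CPM at 4 h; library C of 4 h stood above the other 4 h libraries, and the groups did not overlap. The genes that fell were GBSS1, the granule-bound synthase of amylose, at 480.4, 355 and 338 CPM at 0 h and 77.6, 61.0 and 59.3 CPM at 4 h, with a log2 difference of -2.57 ± 0.29 (edgeR adjusted p = 5.66e-05), and the beta-amylases CT-BMY and BMY3 (both overlapping), by 1.8 ± 0.21 log2 units (edgeR adjusted p = 7.63e-05) and 3.0 ± 0.16 log2 units (edgeR adjusted p = 2.67e-07).

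The 3 catalase genes did not move together. CAT1 was at 14.9, 22.6 and 15.1 CPM at 0 h and 106, 116 and 115 CPM at 4 h, a log2 difference of 2.68 ± 0.20 (edgeR adjusted p = 3.57e-06), and CAT3 rose as given above. CAT2 (overlapping), the catalase of photorespiration, fell from 2740.2, 2229 and 2396 CPM to 935, 562 and 606 CPM, a log2 difference of -1.81 ± 0.20 (edgeR adjusted p = 3.68e-05). APX1, the cytosolic ascorbate peroxidase, rose by 0.75 ± 0.13 log2 units (edgeR adjusted p = 0.000866).

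Clock genes that peak in the morning were mostly lower. Of 14 tested genes that peak in the morning 10 fell and 1 rose, with a median log2 difference of -1.86. Of 20 genes listed here as day or evening clock genes, among them CDF2, 11 rose and 3 fell. The peak times are those of the list and were not tested for each gene. No unsprayed seedlings were taken at 4 h, so the daily course of these genes and the spray cannot be told apart. CCA1, a MYB-like repressor of the morning, was at 450.3, 364 and 433 CPM at 0 h and 91.2, 67.5 and 65.5 CPM at 4 h, a log2 difference of -2.48 ± 0.16 (edgeR adjusted p = 1.35e-06). LHY, its partner, was at 433, 373 and 432 CPM at 0 h and 11, 10.3 and 13.6 CPM at 4 h; all 3 later values were of 1 narrow range far below the earlier ones. RVE8 was at 132, 107 and 119 CPM at 0 h and 19.2, 14.7 and 12.8 CPM at 4 h, a log2 difference of -2.93 ± 0.24 (edgeR adjusted p = 8.18e-06). AT5G52660 was the member called higher, by 0.44 ± 0.13 log2 units (edgeR adjusted p = 0.0152), and its log2 difference was 0.35 without library B at 0 h (adjusted p = 0.0634) and 0.34 without library A at 4 h (adjusted p = 0.0597).

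Of the genes that rose, PRR5, a pseudo-response regulator of the afternoon, was at 0.449, 1.04 and 0.594 CPM at 0 h and 23.4, 26.3 and 33.9 CPM at 4 h, a log2 difference of 5.28 ± 0.39 (edgeR adjusted p = 4.85e-06). GI, which acts with FKF1 in day length sensing, was at 16.1, 16.0 and 11.9 CPM at 0 h and 94.3, 83.4 and 77.5 CPM at 4 h, a log2 difference of 2.54 ± 0.13 (edgeR adjusted p = 2.17e-07). TOC1, a repressor of the evening, rose by 1.33 ± 0.12 log2 units (edgeR adjusted p = 1.13e-05), PRR7 by 1.31 ± 0.12 log2 units (edgeR adjusted p = 9.03e-06) and ELF4, of the evening complex, by 2.76 ± 0.39 log2 units (edgeR adjusted p = 0.000219). GRP7, an RNA-binding protein under clock control, rose by 2.22 ± 0.17 log2 units (edgeR adjusted p = 3.71e-06). CDF2, a repressor of flowering genes, fell from 48.5, 42.9 and 52.0 CPM to 7.08, 10.2 and 8.72 CPM, a log2 difference of -2.47 ± 0.16 (edgeR adjusted p = 1.35e-06).

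The promoters of LHY and FKF1 are given because these genes stand at the opposite ends of the clock list; FKF1 was chosen after its matches were seen. LHY lies on the minus strand at chr1:37872-38121 and FKF1 on the plus strand at chr1:25508389-25508638, in the same build and with the same marks as above.
LHY: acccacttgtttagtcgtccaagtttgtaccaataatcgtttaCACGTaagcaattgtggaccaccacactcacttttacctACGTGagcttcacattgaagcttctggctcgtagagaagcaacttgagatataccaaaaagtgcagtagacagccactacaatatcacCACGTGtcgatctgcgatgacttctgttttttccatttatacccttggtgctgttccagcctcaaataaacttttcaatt
FKF1: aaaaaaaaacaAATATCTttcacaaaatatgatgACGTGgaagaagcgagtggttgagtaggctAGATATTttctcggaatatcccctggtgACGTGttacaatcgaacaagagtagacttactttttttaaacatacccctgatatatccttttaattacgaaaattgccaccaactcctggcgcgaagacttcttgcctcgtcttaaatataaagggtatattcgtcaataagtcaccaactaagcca
LHY held 4 ABRE core matches, of which a pair are the strands of 1 G-box. FKF1 held 2 ABRE cores and 3 evening element cores, of which 1 lies at the start and is not printed. The evening element core was found in 11.5% of all windows, in 24.7% of those of genes that rose by 2 to 4-fold, in 30.2% for 4 to 8-fold, in 20.9% for 8 to 16-fold, in 24.4% for 16-fold or more and in 55.0% of those of the day and evening list. An ABRE core was found in 78.6% of the windows of the morning list and in 70.0% of those of the day and evening list.

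Light signalling genes were mixed: 10 of 23 fell and 4 rose. LZF1, a B-box factor of seedling greening, was at 11.9, 10.8 and 10.1 CPM at 0 h and 93.1, 93.3 and 101 CPM at 4 h, a log2 difference of 3.14 ± 0.13 (edgeR adjusted p = 4.76e-08). HY5, the bZIP factor that promotes development in the light, was at 21.3, 17.7 and 15.8 CPM at 0 h and 13.3, 11.5 and 12.4 CPM at 4 h, a log2 difference of -0.55 ± 0.14 (edgeR adjusted p = 0.0081), and its relative HYH fell by 1.91 ± 0.21 log2 units (edgeR adjusted p = 5.4e-05). PIF3, a factor that phytochrome removes in the light, rose by 1.52 ± 0.15 log2 units (edgeR adjusted p = 1.68e-05). PIL5 (overlapping), also known as PIF1, and PIL6, also known as PIF5, fell by 1.02 ± 0.12 log2 units (edgeR adjusted p = 5.43e-05) and 0.88 ± 0.10 log2 units (edgeR adjusted p = 5.05e-05).

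Genes of the ribosome fell broadly. Of 320 tested genes annotated as ribosomal proteins 220 fell and 13 rose, with a median log2 difference of -0.53. All 6 of 6 listed genes of ribosome assembly fell, with a median of -1.3, and all 6 were also called without any single Col-0 library. NAP57, the pseudouridine synthase dyskerin, was at 82.3, 87.0 and 86.2 CPM at 0 h and 37.9, 43.3 and 35.2 CPM at 4 h, a log2 difference of -1.13 ± 0.13 (edgeR adjusted p = 5.48e-05). NOP56 (overlapping), a protein of the small nucleolar RNA particle, fell by 1.47 ± 0.10 log2 units (edgeR adjusted p = 1.98e-06) and FIB2 (overlapping), a fibrillarin, by 1.63 ± 0.17 log2 units (edgeR adjusted p = 2.44e-05). The site II element TGGGCC, known from promoters of translation genes, was found in 54.7% of ribosomal protein windows and in 15.5% of all windows. Of 47 proteasome genes 27 rose and 5 fell (3 without library C of 0 h or library A of 4 h), with a median log2 difference of 0.32.

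Genes of the wax and suberin barriers of the plant mostly rose. Of 8 cuticular wax genes 7 rose and none fell, and of 9 suberin genes 8 rose and none fell. Without library C of 0 h 7 suberin genes rose. The suberin list had its lowest score in that library, -1.41 against -0.468 and -0.833 in libraries A and B of 0 h, where a score is the mean log2 CPM of the genes relative to each gene's mean over the 6 libraries. The root markers given further on were lowest in the same library, and their part in this result was not tested. CER1, which makes the alkanes of leaf wax, was at 35.8, 18.4 and 19.8 CPM at 0 h and 270.0, 212 and 188 CPM at 4 h. The 4 h libraries stood above all of 0 h, a log2 difference of 3.18 ± 0.29 (edgeR adjusted p = 1.43e-05). CER3, its partner, rose by 0.97 ± 0.15 log2 units (edgeR adjusted p = 0.00044), and the elongase genes KCS1 and KCS6 by 1.35 ± 0.16 log2 units (edgeR adjusted p = 5.98e-05) and 0.72 ± 0.17 log2 units (edgeR adjusted p = 0.00516). GPAT5, an acyltransferase of suberin, was at 10.0, 6.06 and 3.72 CPM at 0 h and 46.9, 31.4 and 32.0 CPM at 4 h, a log2 difference of 2.5 ± 0.33 (edgeR adjusted p = 0.000215). The suberin regulator MYB107 rose by 1.98 ± 0.30 log2 units (edgeR adjusted p = 0.000342) and CYP86B1, an oxidase of very long chains, by 1.88 ± 0.38 log2 units (edgeR adjusted p = 0.00297). Of 6 lipid transfer proteins 4 rose and none fell, with 1 lower without library B of 0 h. LTP3 was at 28.6, 18.2 and 2.47 CPM at 0 h and 539.7, 517 and 419 CPM at 4 h, with library C lowest at 0 h, a log2 difference of 4.92 ± 0.77 (edgeR adjusted p = 0.000749), and LTP2 rose by 2.61 ± 0.29 log2 units (edgeR adjusted p = 6.36e-05).

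Stress transcription factors outside the bZIP group rose in part. Of 12 stress NAC genes 8 rose and 1 fell. RD26, a NAC factor induced by dehydration and ABA, rose by 1.92 ± 0.21 log2 units (edgeR adjusted p = 4.4e-05). NAC3, also known as ANAC055, was at 2.59, 2.39 and 2.66 CPM at 0 h and 7.74, 6.86 and 14.1 CPM at 4 h, a log2 difference of 1.91 ± 0.29 (edgeR adjusted p = 0.000409), and NAC6, also known as ORE1, rose by 2.39 ± 0.37 log2 units (edgeR adjusted p = 0.000633). NAC032 was at 21.4, 15.2 and 13.8 CPM at 0 h and 28.2, 27.6 and 60.6 CPM at 4 h, with library C of 4 h above the rest; its log2 difference of 1.21 ± 0.31 (edgeR adjusted p = 0.0102) was 0.74 without library C at 4 h (adjusted p = 0.0199). Of 17 class I HD-Zip genes 7 rose and 5 fell, and without library B of 0 h 4 rose. HB-7, induced by water deficit, was at 76.6, 51.3 and 37.8 CPM at 0 h and 256, 211 and 192 CPM at 4 h, a log2 difference of 1.99 ± 0.23 (edgeR adjusted p = 6.16e-05), and HB6 rose by 1.33 ± 0.10 log2 units (edgeR adjusted p = 3.84e-06). ATHB54 fell by 2.14 ± 0.28 log2 units (edgeR adjusted p = 0.000146).

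Of 29 other stress factors 15 rose and none fell, with 1 lower without library C of 4 h. DREB2A (overlapping), which binds the DRE under drought and heat, was at 2.24, 2.77 and 1.94 CPM at 0 h and 13.9, 11.2 and 21.6 CPM at 4 h, a log2 difference of 2.75 ± 0.27 (edgeR adjusted p = 2.13e-05). The cold factor CBF2 was at 0.399, 0.485 and 0.469 CPM at 0 h and 2.11, 2.13 and 2.66 CPM at 4 h; it was low at both times, with a log2 difference of 2.33 ± 0.31 (edgeR adjusted p = 0.000163). HSFA6B was at 0.0498, 0.0346 and 0 CPM at 0 h and 6.74, 3.32 and 4.78 CPM at 4 h, with 2 counts in all at 0 h, so no fold is given. MYB102 rose by 3.29 ± 0.53 log2 units (edgeR adjusted p = 0.000762) and MYB41, a regulator of cuticle and suberin, by 2.63 ± 0.29 log2 units (edgeR adjusted p = 4.41e-05). MYB96, which links ABA to wax synthesis, was at 19.7, 20.9 and 18.1 CPM at 0 h and 49.6, 51.6 and 46.8 CPM at 4 h, a log2 difference of 1.33 ± 0.11 (edgeR adjusted p = 6.24e-06).

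Among growth hormones, auxin repressor genes of the Aux/IAA family were often lower: 12 of 21 fell and 2 rose. The count of falls depended on single libraries, and it was 5 without library C of 0 h, 7 without library A of 4 h and 6 without library C of 4 h. The count of rises was 1 when any Col-0 library but C of 4 h was left out. IAA1 was at 17.2, 18.7 and 19.6 CPM at 0 h and 8.81, 7.32 and 5.18 CPM at 4 h, a log2 difference of -1.38 ± 0.17 (edgeR adjusted p = 8.66e-05). AXR3 fell by 0.96 ± 0.18 log2 units (edgeR adjusted p = 0.00147) and ATAUX2-11, also known as IAA4, by 0.95 ± 0.16 log2 units (edgeR adjusted p = 0.000599). Of 9 type A response regulators, early targets of cytokinin, 5 fell and 1 rose, and without library A of 4 h 3 fell. ARR15 was at 2.34, 2.39 and 4.19 CPM at 0 h and 0.242, 0.364 and 0.708 CPM at 4 h, a log2 difference of -2.78 ± 0.42 (edgeR adjusted p = 0.00036), and ARR9 (overlapping) fell by 1.15 ± 0.16 log2 units (edgeR adjusted p = 0.000207). Of 17 gibberellin genes 6 rose and 1 fell, and 0 fell without library C of 0 h and 2 without library A of 4 h. The receptors GID1A, GID1B and GID1C rose by 0.90 ± 0.12 log2 units (edgeR adjusted p = 0.000119), 0.83 ± 0.17 log2 units (edgeR adjusted p = 0.00232) and 0.99 ± 0.08 log2 units (edgeR adjusted p = 3.57e-06). GA2OX6, which inactivates gibberellin, was at 3.69, 4.37 and 2.69 CPM at 0 h and 16.4, 15.1 and 30.8 CPM at 4 h, a log2 difference of 2.54 ± 0.33 (edgeR adjusted p = 0.000174). BAS1, which inactivates brassinosteroids, fell from 20.9, 20.6 and 26.2 CPM to 4.98, 6.96 and 5.18 CPM, a log2 difference of -1.99 ± 0.21 (edgeR adjusted p = 3.92e-05).

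Of 12 expansins, which loosen the cell wall, 6 fell and 1 rose. EXPA1 was at 216, 227 and 226 CPM at 0 h and 46.9, 61.4 and 61.9 CPM at 4 h. The fall was much larger than the spread, with a log2 difference of -1.98 ± 0.19 (edgeR adjusted p = 1.37e-05). EXPA8 fell by 2.34 ± 0.30 log2 units (edgeR adjusted p = 0.000198) and EXPA15 by 2.26 ± 0.27 log2 units (edgeR adjusted p = 9.8e-05). EXPA16, the expansin that rose, did so by 5.50 ± 0.30 log2 units (edgeR adjusted p = 5.49e-07). Of 16 cell cycle genes 5 rose and 2 fell. Without library A of 0 h or without library B of 4 h 1 rose, without library B of 0 h 3 did and without library C of 0 h 2 did. The count of falls was 1 when any Col-0 library but B of 4 h was left out. CYCD3;1 (overlapping), a cyclin of entry into division, fell by 0.57 ± 0.12 log2 units (edgeR adjusted p = 0.00308).

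Jasmonate genes rose in 17 of 25 cases and none fell, with a median log2 difference of 1.36. Without library C of 4 h the count was 15 and the median 0.84. AOC2, an allene oxide cyclase of jasmonate synthesis, was at 31.5, 21.7 and 25.3 CPM at 0 h and 230.1, 268 and 327 CPM at 4 h, with library C of 4 h highest and the groups far apart, a log2 difference of 3.39 ± 0.32 (edgeR adjusted p = 1.96e-05). AOS, the enzyme before it, rose by 1.32 ± 0.14 log2 units (edgeR adjusted p = 3.42e-05). LOX2, the lipoxygenase of the chloroplast, was at 109, 66.3 and 98.2 CPM at 0 h and 1023, 1099.9 and 1239 CPM at 4 h, a log2 difference of 3.62 ± 0.53 (edgeR adjusted p = 0.000432). JAZ1, a repressor of jasmonate responses, rose by 2.3 ± 0.32 log2 units (edgeR adjusted p = 0.000334). CYP94B3, which breaks down the active hormone, was at 1.35, 1.04 and 0.751 CPM at 0 h and 18.8, 19.3 and 59.8 CPM at 4 h, a log2 difference of 5.0 ± 0.51 (edgeR adjusted p = 4.85e-05). VSP2, a vegetative storage protein induced by jasmonate, was at 53.1, 43.6 and 36.5 CPM at 0 h and 567, 441 and 882 CPM at 4 h, a log2 difference of 3.83 ± 0.83 (edgeR adjusted p = 0.00463).

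Heat shock genes and some defence genes were highest in library C of 4 h, and the part of that library in the counts below is given by leaving it out. The score of the heat shock list was 1.99 in that library, -0.157 in library A and 0.295 in library B of 4 h. Of 12 heat shock genes 8 rose and 1 fell; without library B or library C of 0 h the count was 5, and without library C of 4 h it was 7. HSP18.2 was at 2.84, 3.22 and 3.25 CPM at 0 h and 7.33, 8.10 and 10.9 CPM at 4 h, a log2 difference of 1.49 ± 0.18 (edgeR adjusted p = 7.8e-05). HSP17.6A was at 1.05, 1.07 and 1.34 CPM at 0 h and 2.38, 3.64 and 32.1 CPM at 4 h, where 1 library is far above the others; its log2 difference of 3.44 ± 0.88 (edgeR adjusted p = 0.0109) was 1.36 without library C at 4 h (adjusted p = 0.0033). HSP17.6A was not called by limma-voom (adjusted p = 0.12) or in a fit of only the compared groups (0.0667). Of 15 salicylate and defence genes 7 rose and none fell, and the count was 4 without library A of 0 h, without library C of 0 h or without library C of 4 h, with 1 lower in the last of these. FRK1 (overlapping), a receptor-like kinase induced by flagellin, was at 0, 0.693 and 0.156 CPM at 0 h and 2.35, 4.68 and 194 CPM at 4 h. Nearly all of its 4 h level came from library C, and its log2 difference of 7.75 ± 2.19 (edgeR adjusted p = 0.0178) was 7.32 without library A at 0 h (adjusted p = 0.0591), 7.38 without library C at 0 h (adjusted p = 0.0702) and 3.50 without library C at 4 h (adjusted p = 0.0866). FRK1 was not called by limma-voom (adjusted p = 0.385) or in a fit of only the compared groups (0.0584). NPR1 (overlapping), a receptor of salicylate, was at 22.2, 22.7 and 22.9 CPM at 0 h and 33.1, 31.0 and 38.6 CPM at 4 h, a log2 difference of 0.60 ± 0.08 (edgeR adjusted p = 0.000209).

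**Figure D5:**
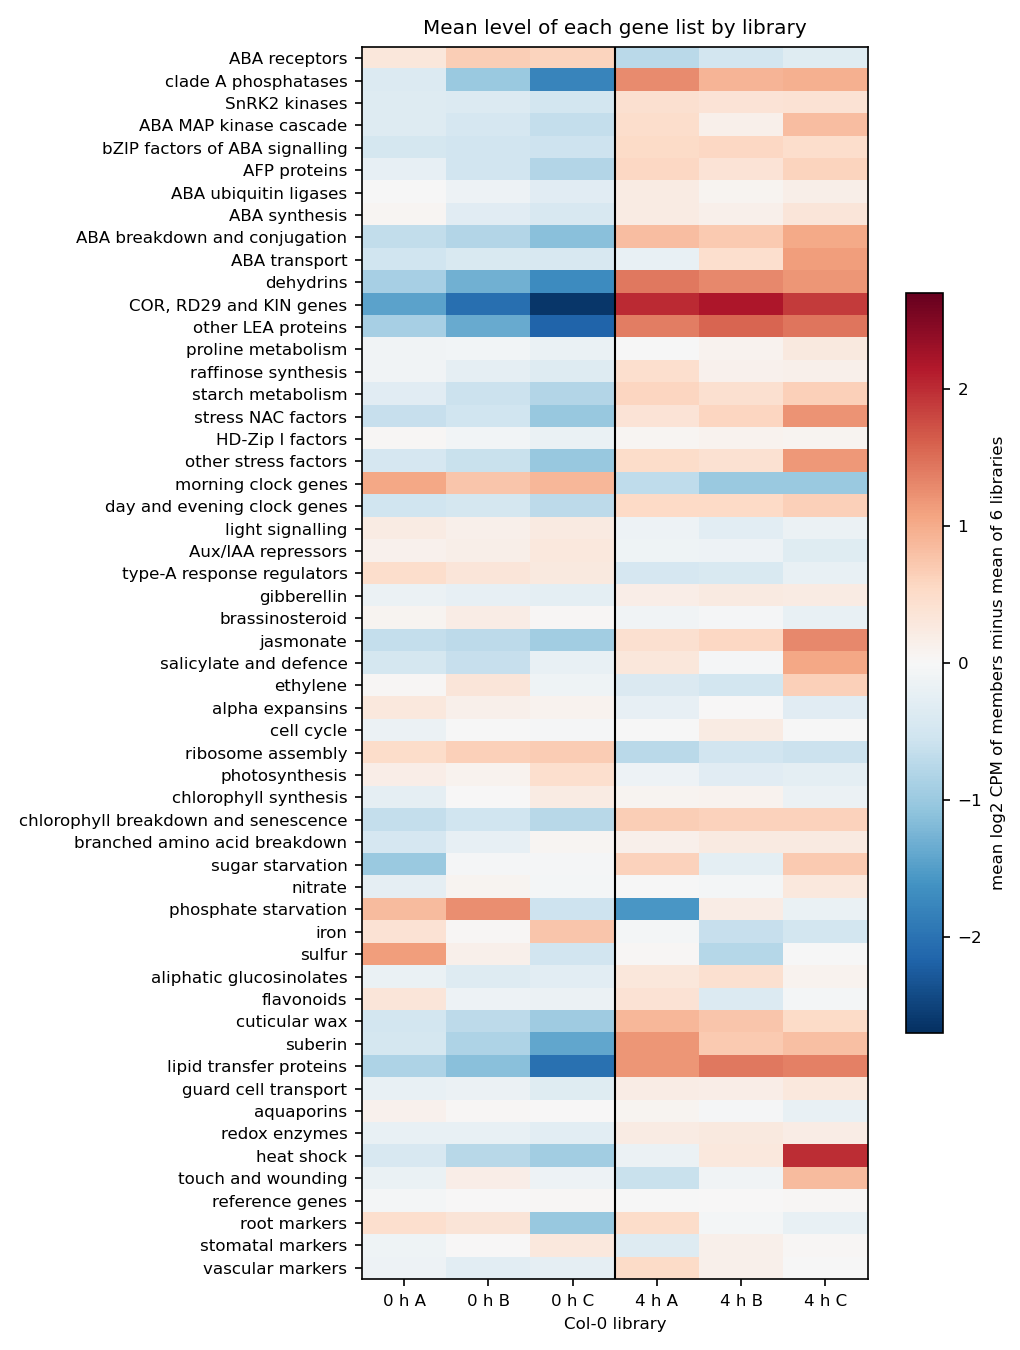
Score of each gene list in each of the 6 Col-0 libraries, as the mean over its genes of log2 CPM relative to each gene's mean over the 6 libraries. Library C of 0 h has the lowest score for PP2C genes (-1.77), COR, RD29 and KIN genes (-2.63) and LEA genes (-2.16), and library C of 4 h has the highest heat shock score (1.99).

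Nutrient and secondary metabolism genes showed smaller groups of calls. Of 12 genes of aliphatic glucosinolates 8 rose and 1 fell, and 2 fell without library B of 0 h and 0 without library A or C of either time. CYP79F1, the entry enzyme, was at 126, 104 and 131 CPM at 0 h and 288, 318 and 222 CPM at 4 h, a log2 difference of 1.2 ± 0.15 (edgeR adjusted p = 0.000119), and MAM1, which lengthens the amino acid chain, rose by 1.04 ± 0.14 log2 units (edgeR adjusted p = 0.000174). In flavonoid synthesis, TT4 (overlapping), the chalcone synthase, fell by 1.63 ± 0.35 log2 units (edgeR adjusted p = 0.00439), while the MYB factor PAP1, also known as MYB75, was at 3.39, 1.32 and 1.09 CPM at 0 h and 27.9, 24.2 and 19.0 CPM at 4 h and rose by 3.67 ± 0.54 log2 units (edgeR adjusted p = 0.000464). The iron transporter IRT1 was at 1.94, 0.658 and 4.25 CPM at 0 h and 0.0691, 0.0519 and 0 CPM at 4 h, a log2 difference of -5.62 ± 1.18 (edgeR adjusted p = 0.00345). Its 4 h values were near the limit of detection, so the size of the fall is uncertain. Of 15 iron genes 4 fell and 2 rose, and 2 fell without library A or C of 0 h or library B or C of 4 h. The count of rises was 1 when any Col-0 library but A of 4 h was left out. Of 10 nitrate genes 2 rose and 2 fell. The count of falls was 0 or 1 when any Col-0 library was left out, and 1 rose without library C of 4 h. NRT1.1, a nitrate transporter and sensor, rose by 0.82 ± 0.15 log2 units (edgeR adjusted p = 0.00108). APR2 (overlapping), of sulfate reduction, fell by 1.2 ± 0.27 log2 units (edgeR adjusted p = 0.00514) and was the 1 gene called among 6 sulfur genes. All 12 tested phosphate starvation genes had their lowest 0 h value in library C; 2 of 12 fell with all libraries, 5 fell without library C of 0 h and 1 fell without any other Col-0 library. RNS1, a ribonuclease of phosphate starvation and senescence, was at 2.09, 2.98 and 0.469 CPM at 0 h and 16.0, 47.0 and 81.8 CPM at 4 h, a log2 difference of 4.73 ± 0.68 (edgeR adjusted p = 0.000412). Of 9 genes of proline metabolism 3 rose and 2 fell, with log2 differences from -0.99 to 2.34 among the 9. Without library C of either time 2 rose. P5CS1 (overlapping), the stress-induced enzyme of synthesis, was at 719, 500.4 and 324 CPM at 0 h and 837, 865 and 564 CPM at 4 h. Its groups overlapped and its log2 difference of 0.55 ± 0.32 did not pass, while P5CR, the next enzyme, fell by 0.99 ± 0.09 log2 units (edgeR adjusted p = 1.24e-05).

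Of 7 ion transport genes of guard cells 2 rose (28.6%) and none fell, beside 20.7% higher and 19.3% lower over all features. GORK, the potassium channel of efflux, was at 15.5, 12.2 and 10.4 CPM at 0 h and 55.6, 33.9 and 44.4 CPM at 4 h, a log2 difference of 1.82 ± 0.22 (edgeR adjusted p = 9.22e-05). OZS1 (overlapping), also known as SLAC1, the anion channel, rose by 0.87 ± 0.20 log2 units (edgeR adjusted p = 0.00564). Of 18 aquaporins 1 rose and 2 fell, with 0 lower without library C of 4 h and 1 lower without any other Col-0 library but A of 4 h. PIP2;5 rose by 0.86 ± 0.13 log2 units (edgeR adjusted p = 0.000327), and PIP2A, with a log2 difference of -0.34 ± 0.18, was not called.

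Markers of cell types were checked in the same libraries. Their counts stand beside 20.7% called higher and 19.3% called lower over all features. Of 22 tested root markers 2 fell and 1 rose, with a median log2 difference of -0.02. The median was -0.37 without library C of 0 h and 0.16 without library C of 4 h, and 1 fell without library A of either time. Their summed level was 217, 198 and 109.9 CPM at 0 h and 211, 149 and 143 CPM at 4 h, lowest in library C of 0 h, and none was at 0 in all 6 libraries. Their score in that library was -1.03, against 0.451 and 0.340 in libraries A and B of 0 h. The summed level of the 10 seed markers was 0.0938 to 0.698 CPM over the 6 libraries, and 3 of them were at 0 in all 6. WOX5, a gene of the root stem cell niche, was at 0.199, 0.346 and 0.0625 CPM at 0 h and 1.38, 1.3 and 0.841 CPM at 4 h, a log2 difference of 2.53 ± 0.55 (edgeR adjusted p = 0.00378). Of 10 stomatal markers 2 fell, which is 20% and near the 19.3% of all features. Among them was the guard cell factor MYB60, at 17.5, 18.6 and 20.9 CPM at 0 h and 8.88, 12.5 and 11.8 CPM at 4 h. It fell by 0.79 ± 0.18 log2 units (edgeR adjusted p = 0.00563). Of 6 vascular markers 2 rose, among them the phloem sucrose transporter SUC2 by 0.72 ± 0.14 log2 units (edgeR adjusted p = 0.00211).

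Of 14 genes often used as references for quantitative PCR 4 rose (28.6%) and 3 fell (21.4%), against 20.7% and 19.3% of all features. Without library A or C of 0 h 1 rose, and without library B of 0 h or A of 4 h 2 rose. ACT2, an actin, was at 688, 693 and 769.7 CPM at 0 h and 454, 407 and 427 CPM at 4 h, a log2 difference of -0.74 ± 0.16 (edgeR adjusted p = 0.00357). GAPC2 fell by 0.79 ± 0.09 log2 units (edgeR adjusted p = 6.82e-05) and UBQ5 by 0.58 ± 0.12 log2 units (edgeR adjusted p = 0.00217), while UBQ10, at 0.24 ± 0.11, was called only by DESeq2 (adjusted p = 0.0228) among the alternatives run.

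In the RNAi-MARS line 9567 features were called between 0 h and 4 h (42.6%). Of the Col-0 calls 7209 were also called in the same direction there, which is 80.3% of the Col-0 calls and 75.4% of the RNAi-MARS calls, and 2 were called in opposite directions. The libraries of these contrasts are separate, but they share the times of sampling. Of the 2646 Col-0 calls of at least 2-fold, 2304 (87.1%) were also called in the same direction in RNAi-MARS. For the 780 of at least 4-fold in Col-0 the number was 692 (88.7%). The test of the difference between the responses called no feature in edgeR, with 1076 features at an unadjusted p under 0.05 (4.79%), 4 called by DESeq2 and none by limma-voom. A difference that was not called does not show that the genotypes respond alike. MARS, the long non-coding RNA itself, was at 6.63, 2.60 and 0.344 CPM at 0 h and 21.3, 9.09 and 20.1 CPM at 4 h in Col-0. Its groups did not overlap, but its 0 h values spread widely; the log2 difference of 2.44 ± 0.76 (edgeR adjusted p = 0.0265) was 2.32 without library B at 0 h (adjusted p = 0.0824), 2.23 without library A at 4 h (adjusted p = 0.0658) and 2.3 without library C at 4 h (adjusted p = 0.0583). The MARS call was also lost with no filter (adjusted p = 0.057) and in a fit of only the compared groups (0.0903).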

How the data were processed

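Messenger RNA was sequenced from 12 libraries in 4 groups of 3, and the 2 Col-0 groups are compared here. Per the submitters' processing notes, reads were handled with Trimmomatic 0.36, STAR 2.7.2a and featureCounts of Subread 1.6.5 on the TAIR10 build; settings and strand are not given in the sources used here. The deposited tables hold estimated counts per annotated gene, made by the authors. Between 5.31% and 6.63% of the values of a library are not whole (by more than 0.005), and all were rounded to whole numbers first. Each table lists 69383 features.

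The 12 libraries were fitted together in edgeR 4.0.16 (R 4.3.3), with 1 coefficient per group, TMM scaling and filterByExpr at a minimum count of 10, and tested with the robust quasi-likelihood F test, 2-sided, with Benjamini-Hochberg adjustment over all 22465 features tested and a threshold of 0.05. The fit was tested on simulated data. Named genes are members of 56 lists, the 15 largest rises and falls with at least 5 CPM in the higher group and no overlap between groups, the 10 largest gains and losses of CPM, and MARS. The members and lists were chosen with earlier results of these data known. Genes whose counts were not whole by more than 1% are given as having shared reads. Promoter windows were read from TAIR10.1 with RefSeq gene starts. Alternatives were DESeq2 1.42.0, limma 3.58.1 with voom, other scalings, filters and fold thresholds, the letter A, B or C as a block, and each library left out. Total counts limit the precision of low genes.

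The letters A, B and C were checked for pairing. The correlations of same-letter deviations from the group means were 0.314, -0.107 and -0.0463 in Col-0. Those between other letters ranged from -0.179 to 0.234. With 3 libraries per group these values cannot decide whether equal letters pair libraries. The labels do not say that they do, so the libraries were not treated as pairs.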

Additional observations from a re-analysis of the deposited data

How the results depend on the processing

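The counts of features called higher and lower stayed within 1.5 times of those reported under other scalings, DESeq2, limma-voom, no filter, a fit of only the compared groups and the removal of features with shared reads. With upper quartile scaling 4035 were higher and 5095 lower, and the median log2 difference of all features was -0.064, against -0.0045. When the test was made against a fold of 1.5, 1410 features were higher and 842 lower, 662 of them at least 2-fold lower, and 1857 were called in the same direction in RNAi-MARS; the stricter null gives fewer calls by construction. A filter of at least 5 CPM in 3 libraries left 633 features at least 2-fold lower, with fewer features tested. The test of the difference between the responses called 4 features with DESeq2; the cause was not tested. Leaving out 1 library gave 3750 to 4853 features higher, 3303 to 4465 lower, 1357 to 1742 at least 2-fold higher, 894 to 1040 at least 2-fold lower, 5900 to 7079 called in the same direction in RNAi-MARS, and 0 to 0 in the test of the difference. Leaving out libraries C of both times, an alternative chosen after seeing the data, gave 3327 higher and 2775 lower. With the letters as a replicate block, 4624 features were higher and 4393 lower. The labels do not say that libraries of 1 letter belong together. Of 186 genes given with values or plotted, none changed direction under any alternative run, 38 lost their call under at least 1, and NCED3, LHCA4 and UBQ10, not called in the fit reported, gained one under at least 1. The test against a fold of 1.5 ended 35 of these calls, leaving out libraries C of both times 11, a fit of only the compared groups 6, limma-voom 5, no filter 4 and upper quartile scaling 2.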

Other observations

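Several gene families annotated in the reference were counted in the same comparison. Of 55 WRKY transcription factor genes tested 19 rose and 1 fell. Their summed level was 563, 617 and 526 CPM at 0 h and 574, 606 and 1126 CPM at 4 h, so that library C of 4 h stood apart. Without it 11 rose and 8 fell, and without library C of 0 h 10 rose. Of 25 tau class glutathione transferase genes, which detoxify reactive compounds, 10 rose and 1 fell, and the fall was lost without library A or B of 0 h or library B or C of 4 h, with 2 lower without library A of 4 h. Of 163 cytochrome P450 genes 41 rose and 22 fell, with 12 lower without library A of 0 h, 11 without library B of 4 h and 10 without library C of 4 h. Of 53 UDP-glycosyltransferase genes 16 rose and 3 fell. Genes of pectin modification in the cell wall had 28 higher and 12 lower of 98. Peroxidases had 7 higher and 1 lower of 55, and 4 lower without library C of 0 h. SAUR genes, short transcripts known as early auxin targets, had 1 higher and 8 lower of 16, with 5 lower without library C of 0 h and 0 higher without library A or C of 0 h or library C of 4 h. These counts stand beside 20.7% higher and 19.3% lower over all features.

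Other lists are given beside 20.7% called higher and 19.3% called lower over all features. Of 7 raffinose genes 1 rose, and 2 without library A of 0 h or library C of 4 h. Of 5 ABA transport genes 2 rose, and 1 without library B of 0 h or library C of 4 h. Of 6 sugar starvation genes 2 rose, with 1 lower without library A of 0 h. Of 10 genes of branched-chain amino acid breakdown 3 rose and 1 fell. Without library A or B of 0 h or library B of 4 h 1 of them rose, and without library C of 0 h or library B or C of 4 h 0 fell. Of 10 brassinosteroid genes 2 rose and 3 fell. Of 13 ethylene genes 3 rose and 3 fell, with 1 higher without library B or C of 0 h or library B of 4 h. Of 11 touch and wound genes 3 rose and 1 fell. Their score was 0.844 in library C of 4 h and -0.599 and -0.103 in libraries A and B of 4 h, and without library C of 4 h 4 fell. Transposable element features had 54 higher (9.41%) and 74 lower (12.9%) of 574 tested, at a median level of 0.999 CPM.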
